A study of Homo sapiens with 8 samples.

Results

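The cyclin-dependent kinase (CDK) genes described here are the 10 members CDK1, CDK2, CDK4, CDK5, CDK6, CDK7, CDK8, CDK9, CDK12 and CDK13, taken by name from the 60664 genes of each of 2 count tables. The rule used no measured value, but earlier results of these data were known when the members were chosen. Ribosome-protected fragments, the short stretches of mRNA shielded by translating ribosomes, were sequenced in 8 libraries from the osteosarcoma cell line U-2 OS. In the TRiC line the endogenous chaperonin subunit CCT4 carried a HaloTag, and in the PFD line the prefoldin subunit PFDN4 carried it; each line was a single edited clone. For each line there were 2 input libraries, made from all ribosomes pelleted through sucrose, and 2 pulldown libraries, made from the ribosomes recovered with the tagged chaperone after crosslinking. All 8 libraries came from cells given cycloheximide for 1 min and the crosslinker DSP for 30 min, and no untagged control line was among them. The reporting summary of the study calls the replicates biological; the labels do not say how they were separated, and the p-values measure the spread between these libraries.

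CDKs are protein kinases that are inactive alone and are switched on by a cyclin or a cyclin-like partner. CDK1, CDK2, CDK4 and CDK6 drive the cell cycle, whereas CDK7, CDK8, CDK9, CDK12 and CDK13 act on RNA polymerase II or the Mediator complex, and CDK5 is activated by p35 and is best known in neurons. TRiC is a double-ring chaperonin that encloses folding proteins, PFD is a co-chaperone that passes substrates to it, and newly made kinases are better known as clients of HSP90 with CDC37. An enrichment in a pulldown compares a gene's share of the fragments recovered with the chaperone with its share of those from all ribosomes. It does not give the part of a gene's ribosomes that was recovered.

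The cyclin-facing helix is the landmark by which CDKs are told apart, and its codons are shown to place the members beside each other. The helix was found once in the main coding sequence of each member. In the cell-cycle members and CDK5 it starts between codon 45 and codon 55 of 292 to 326 codons. The capitals mark the 7 helix codons, and 5 codons are given on either side, in the 5′ to 3′ direction of the mRNA (genome build hg38, GENCODE release 44). The CDK1 helix lies at chr10:60784800-60784820 on the plus strand, in exon 3, that of CDK2 at chr12:55967873-55967893 on the plus strand, in exon 2, and that of CDK4 at chr12:57751550-57751570 on the minus strand, in exon 2. The CDK6 helix lies at chr7:92833141-92833161 on the minus strand, in exon 2, and that of CDK5 at chr7:151056949-151056969 on the minus strand, in exon 3.
CDK1: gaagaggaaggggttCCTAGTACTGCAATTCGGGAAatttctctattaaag
CDK2: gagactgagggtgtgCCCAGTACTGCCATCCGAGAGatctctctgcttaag
CDK4: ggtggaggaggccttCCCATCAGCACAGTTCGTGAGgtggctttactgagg
CDK6: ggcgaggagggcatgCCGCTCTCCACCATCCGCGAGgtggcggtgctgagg
CDK5: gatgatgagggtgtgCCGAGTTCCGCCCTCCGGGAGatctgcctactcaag

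Among the transcriptional members the helix starts at codon 56 in CDK7 and at codon 60 in CDK8 and CDK9. In CDK12 and CDK13, which have a long region before the kinase, it starts at codon 768 of 1490 and at codon 746 of 1512. The CDK7 helix lies at chr5:69254607-69254627 on the plus strand, in exon 4, and that of CDK8 at chr13:26337616-26337636 on the plus strand, in exon 2. The CDK9 helix lies at chr9:127787521-127787541 on the plus strand, in exon 3, that of CDK12 at chr17:39494577-39494597 on the plus strand, in exon 5, and that of CDK13 at chr7:40001914-40001934 on the plus strand, in exon 5.
CDK7: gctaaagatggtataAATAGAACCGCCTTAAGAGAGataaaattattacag
CDK8: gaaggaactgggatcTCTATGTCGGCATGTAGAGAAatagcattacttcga
CDK9: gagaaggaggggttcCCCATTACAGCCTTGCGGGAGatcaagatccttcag
CDK12: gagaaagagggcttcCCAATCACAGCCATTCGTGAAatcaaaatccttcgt
CDK13: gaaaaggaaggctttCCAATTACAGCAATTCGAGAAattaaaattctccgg

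Identity over the aligned residues, translated from the annotated coding sequences, was highest for CDK4 and CDK6, at 72.1% over 290 residues. CDK1 and CDK2 shared 67.1% over 292 residues, and CDK2 and CDK5 60.7% over 290. The lowest value was 37.8%, for CDK8 and CDK9 over 331 residues. CDK12 and CDK13 shared 55.1%, but over 1258 residues, which take in regions outside the kinase. The pairs were thus not compared over like spans, and their order is not a ranking of the kinase domains.

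The libraries held between 9523128 and 32637658 counts, with 24949407 or more in every TRiC library and 19129686 and 10254334 in the PFD inputs. The 2 PFD pulldowns differed most in depth, at 9523128 and 28582306. The common dispersion of counts was 0.0153 in the TRiC libraries and 0.331 in the PFD libraries, so the PFD comparison had the wider error. Mitochondrial genes took 1.51% and 1.63% of counts in the TRiC inputs against 0.171% and 0.213% in the TRiC pulldowns. Of 8 osteosarcoma and mesenchymal markers, RUNX2, COL1A1, SPARC and VIM were abundant (at least 613 counts in every library), whereas SP7, COL1A2 and BGLAP reached at most 8, 66 and 24 counts. Their summed level ranged from 8184 to 8453 CPM (counts scaled to a common library size) in the TRiC inputs, 6799 to 7316 in the TRiC pulldowns, 8537 to 8821 in the PFD inputs against 8708 to 9705 in the PFD pulldowns. ALPL, the remaining marker of these 8, differed between the lines, at 3.4 and 2.5 CPM in the TRiC inputs against 42.1 and 42.8 in the PFD inputs. Among 5 epithelial markers KRT8 and KRT18 were present, and CDH1 and KRT19 stayed at or under 21 counts. EPCAM ranged from 1 to 277 counts, both of these in PFD pulldowns. The 5 blood markers had at most 5 counts.

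Ribosome occupancy of the members spanned a wide range in both input groups. Per kilobase of coding length, CDK1 was highest in the TRiC inputs, at 381 ± 30.3 CPM per kb (SD, n = 2), and CDK5 was lowest, at 12.002 ± 1.194 (SD, n = 2), a ratio of 31.7. Between them stood CDK4 at 184 ± 0.453, CDK6 at 99.0 ± 8.86, CDK9 at 93.7 ± 2.57 and CDK2 at 77.5 ± 2.24 CPM per kb (SD, n = 2). CDK7 followed at 31.6 ± 0.119, CDK12 at 22.9 ± 0.679, CDK13 at 22.5 ± 0.609 and CDK8 at 16.3 ± 0.246. The libraries of CDK6 and CDK9 overlapped, as did those of CDK12 and CDK13, and the other neighbours in this order did not. The PFD inputs gave the same order, from CDK1 at 330 ± 33.3 to CDK5 at 9.53 ± 4.61 CPM per kb (SD, n = 2), a ratio of 34.6. There CDK4 (236 ± 20.9) and CDK6 (207 ± 22.8) overlapped and the other neighbours did not. Because the lengths used are those of the longest annotated coding sequence, CDK2 and other genes with several isoforms are approximate; by exon length CDK13 was lowest in the TRiC inputs (4.12 CPM per kb, with CDK5 next at 4.57), the ratio of the highest to the lowest was 21.1, and CDK6 stood sixth.

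**Figure D1:**
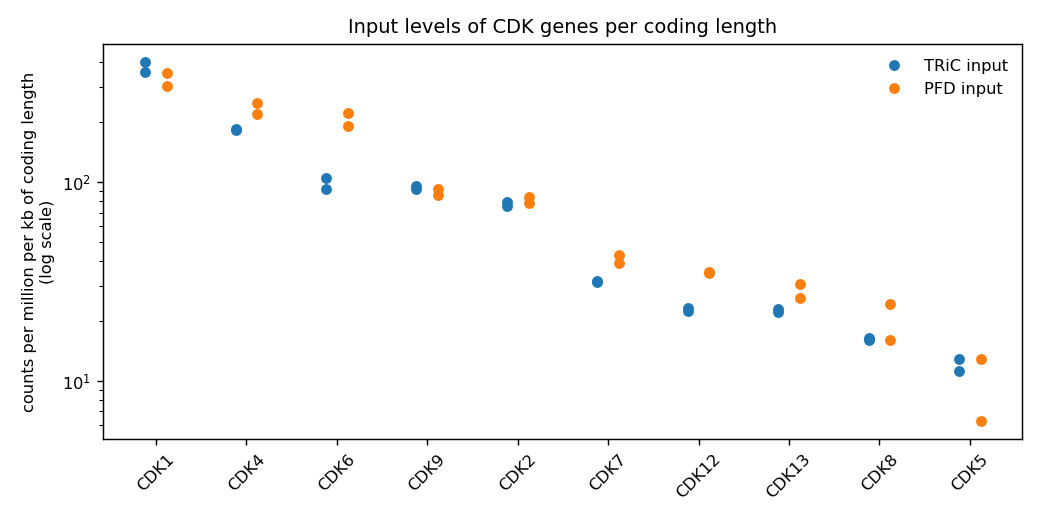
Input level of each CDK gene in CPM per kb of coding length (log axis), in the 2 TRiC inputs (blue) and the 2 PFD inputs (orange), ordered by the TRiC mean. CDK1 was highest and CDK5 lowest in both lines.

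The TRiC comparison asked which members were on ribosomes recovered with the chaperonin more or less often than their share of all ribosomes. CDK4 was lower in the TRiC pulldown and was the 1 member of 10 to pass the test. Across all genes tested, 8.64% were called higher and 10.6% lower (edgeR quasi-likelihood test, Benjamini-Hochberg adjusted p under 0.05), so 1 member lower and 0 higher is near the background. With library totals in place of TMM scaling the calls over all genes were 1801 higher and 1265 lower, against 1550 and 1894. With same-numbered libraries taken as pairs, CDK4, CDK6, CDK7 and CDK9 were called, and over all genes 2037 higher and 2652 lower. The median change of the members was -0.17 on the log2 scale, with 3 above and 7 below 0, and that of all genes was -0.0032. At an unadjusted p under 0.05, 5 of the 10 members passed, against 32.5% of all genes. Inputs and pulldowns did not overlap for 2 members that were higher and 6 that were lower, against 29.3% and 31.2% of all genes.

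CDK4, the cyclin D-dependent kinase of the G1 phase, had 166.6 and 167.2 CPM in the TRiC inputs against 143.7 and 124.6 CPM in the pulldowns. Both pulldowns were lower than both inputs, and the log2 fold change was -0.31 (SE 0.08, edgeR adjusted p = 0.014). The call was lost without TRiC input replicate 1 (adjusted p = 0.098), without input replicate 2 (0.082) and without pulldown replicate 2 (-0.21, 0.093), and with library totals (-0.27, 0.058), cyclic loess (-0.22, 0.064), a fit of all 8 libraries (-0.32, 0.47) or a test against a 1.5-fold change. With TRiC the fit of all 8 libraries called only 16 higher and 15 lower of 18855 genes. The test against a 1.5-fold change called 164 and 64 of 17934. CDK4 shares 44.2% of its exon bases, and 30.5% of its coding bases, with the opposite-strand gene TSPAN31. TSPAN31 was listed at 608 and 721 counts in the TRiC inputs against 638 and 435 in the pulldowns, against 4620 and 5064, and 4790 and 3136, for CDK4. Whether strand was used in counting is not given in the sources used here, and the part of these reads in the change was not tested.

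CDK6, the close relative of CDK4, had 90.7 and 103.0 CPM in the TRiC inputs against 111.3 and 117.3 CPM in the pulldowns. Its groups did not overlap and its log2 fold change was 0.24 (SE 0.09), but it did not pass the test (edgeR adjusted p = 0.068). It passed with at least 100 counts per library (0.30, adjusted p = 0.0089), with cyclic loess (0.33, 0.013) and without TRiC pulldown replicate 1 (0.27, 0.025).

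CDK1, the mitotic kinase, had 320.3 and 358.6 CPM in the TRiC inputs against 285.5 and 334.5 in the pulldowns, so its groups overlapped (log2 fold change -0.13, SE 0.08, edgeR adjusted p = 0.29); without TRiC pulldown replicate 2 it was -0.24 (adjusted p = 0.015). CDK2, the S-phase kinase, had 78.8 and 82.1 CPM in the inputs against 73.9 and 68.0 in the pulldowns. Its groups did not overlap, with a log2 fold change of -0.18 (SE 0.09) and an edgeR adjusted p of 0.18. CDK2 shares 16.8% of its exon bases with PMEL and an unnamed gene on the opposite strand.

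Among the 5 transcriptional members 0 passed the edgeR test, and 2 had an unadjusted p under 0.05, against 32.5% of all genes. CDK7, the kinase of the CDK-activating complex and of TFIIH, had 32.7 and 32.9 CPM in the TRiC inputs against 21.7 and 29.2 in the pulldowns (log2 fold change -0.37, SE 0.13, edgeR adjusted p = 0.063). CDK9, the kinase of P-TEFb that releases paused polymerase, had 106.5 and 102.5 CPM in the inputs against 82.9 and 92.8 in the pulldowns (-0.25, SE 0.09, edgeR adjusted p = 0.054). In neither gene did inputs and pulldowns overlap. Both were called lower with no filter (adjusted p = 0.030 and 0.047) and without TRiC pulldown replicate 2, CDK7 at -0.59 and CDK9 at -0.32; the replicate block is given with the other settings in the closing section. The Mediator kinase CDK8 had 22.4 and 22.9 CPM in the inputs against 21.1 and 19.2 in the pulldowns (-0.17).

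CDK12 and CDK13, the long members that phosphorylate elongating polymerase, had estimates above 0. CDK12 had 100.1 and 104.4 CPM in the TRiC inputs against 110.3 and 121.3 in the pulldowns, which did not overlap (log2 fold change 0.18, SE 0.09, edgeR adjusted p = 0.15); it was called with at least 100 counts per library (0.24, adjusted p = 0.030), with cyclic loess (0.26, 0.034) and without TRiC pulldown replicate 1 (0.24, 0.048). CDK13 had 104.1 and 100.2 CPM in the inputs against 108.8 and 103.3 in the pulldowns, which overlapped (0.05, SE 0.08). CDK5 had the lowest estimate, -0.44 (SE 0.19, edgeR adjusted p = 0.12), from 11.3 and 9.8 CPM in the inputs against 8.0 and 7.5 in the pulldowns; it also had the fewest counts, 188 to 312 per TRiC library.

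**Figure D2:**
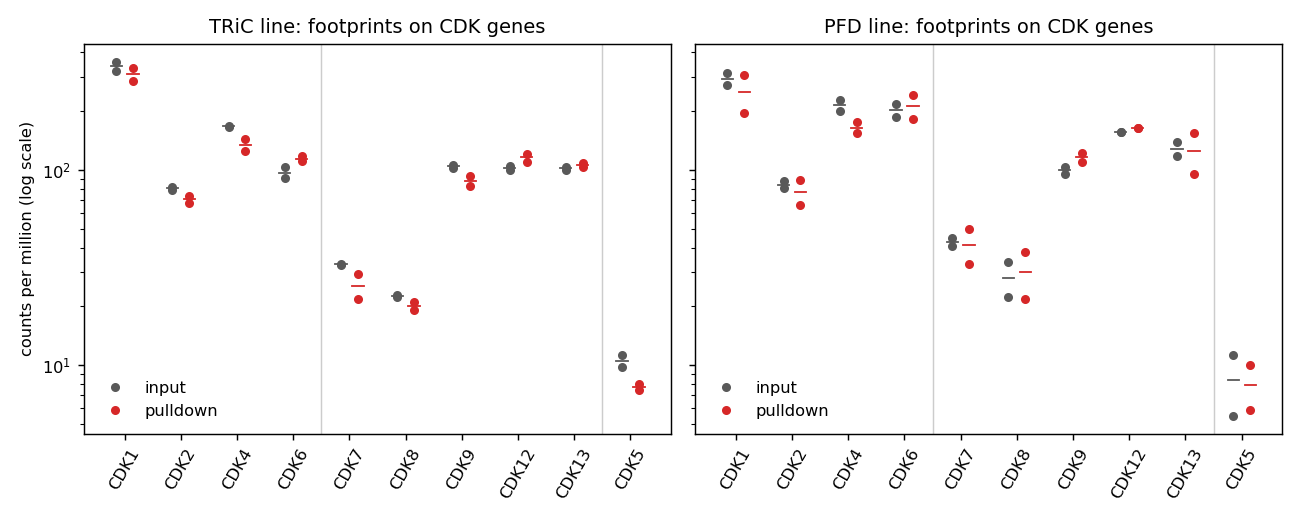
CPM (log axis) of each CDK gene in each library, TRiC line left and PFD line right; grey points are inputs, red points pulldowns and bars group means. CDK4 had both TRiC pulldowns below both inputs, and CDK6 both above.

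The PFD comparison put the same question to prefoldin. No member of 10 passed the edgeR test, against 0.241% of all genes. DESeq2 also called 0 members, against 256 higher and 295 lower of 14111 genes. Only 1 member, CDK4, had an unadjusted edgeR p under 0.05, against 6.93% of all genes. Inputs and pulldowns did not overlap for 2 members that were higher and 1 that was lower, against 18.3% and 20.4% of all genes. CDK4 had 227.8 and 201.0 CPM in the PFD inputs against 175.6 and 154.0 in the pulldowns. The pulldowns were again below both inputs, at a log2 fold change of -0.38 (SE 0.14, edgeR adjusted p = 0.71). Without PFD pulldown replicate 1 the change was -0.48. Opposite-strand TSPAN31 was listed at 158 and 94 counts in the PFD inputs against 184 and 374 in the pulldowns, in libraries of unequal depth. For CDK4 the counts were 4394 and 2085 against 1629 and 4388. The part of these reads in the change was not tested. CDK6 had 186.4 and 218.0 CPM in the inputs against 241.2 and 181.7 in the pulldowns, which overlapped (0.06, SE 0.17).

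CDK1 had 272.7 and 314.7 CPM in the PFD inputs against 194.6 and 307.1 in the pulldowns (log2 fold change -0.22, SE 0.21). Its value rested on single libraries, at 0.06 without PFD pulldown replicate 1 and -0.60 without replicate 2. CDK9 had 103.4 and 95.5 CPM in the inputs against 122.6 and 110.2 in the pulldowns, which did not overlap (0.23, SE 0.17, edgeR adjusted p = 0.89). CDK12 was also higher in both pulldowns, at 163.2 and 163.1 against 157.1 and 156.1 CPM (0.06). CDK2 (-0.13), CDK7 (-0.05), CDK8 (0.10), CDK13 (-0.03) and CDK5 (-0.08) had overlapping groups. CDK5 had an interval from -1.87 to 1.71.

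**Figure D3:**
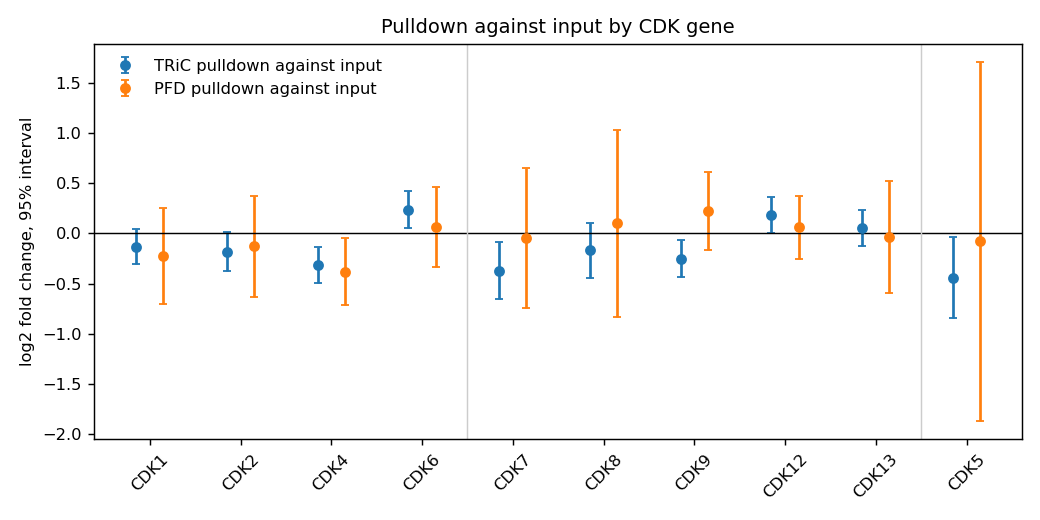
Log2 fold change of pulldown against input with its 95% interval for each CDK gene, TRiC (blue) and PFD (orange), cell-cycle members left, transcriptional members in the middle and CDK5 right. The TRiC interval of CDK4 runs from -0.49 to -0.14, and the PFD intervals are wider.

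Whether the change differed between the chaperones was tested as an interaction over all 8 libraries. No member passed the edgeR test, against 0.0371% of all genes. DESeq2 called 0 members, against 481 higher and 536 lower of 18855 genes. At an unadjusted edgeR p under 0.05 there was 1 member, against 14.8% of all genes. That member was CDK9, whose change was 0.46 log2 units lower with TRiC than with PFD (difference -0.46, SE 0.16, 95% interval -0.83 to -0.09, edgeR adjusted p = 0.27). CDK6 had the highest difference, 0.19 (interval -0.25 to 0.64). For CDK4 the difference was 0.08 (interval -0.29 to 0.45). Without PFD pulldown replicate 2 the difference was 0.53 for CDK1 and 0.55 for CDK13.

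The cell-cycle and transcriptional members were compared by their medians, with no test. In the TRiC pulldown the median was -0.16 for the 4 cell-cycle members and -0.17 for the 5 transcriptional members, a difference of 0.010. Same-numbered pairs of libraries gave differences of -0.043 and -0.042, and the 4 ways to set a pulldown against an input gave -0.068 to 0.091, a range chosen after the data were seen. In the PFD pulldown the medians were -0.18 and 0.06, a difference of -0.24, with pairs at -0.098 and -0.49 and the 4 settings from -0.49 to 0.22. Without PFD pulldown replicate 2 the sign turned, to 0.25.

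Within the cell-cycle members the ratio of CDK6 to CDK4 counts, which does not depend on scaling, was chosen after its values were seen and is a description. It was 0.544 and 0.616 in the TRiC inputs against 0.775 and 0.941 in the TRiC pulldowns, a shift of 0.56 on the log2 scale. In the PFD line it was 0.818 and 1.08 in the inputs against 1.37 and 1.18 in the pulldowns, a shift of 0.43. Pulldowns were above inputs in both lines, with no overlap. In the TRiC line this follows from the CDK4 and CDK6 values given above, which moved in opposite directions without overlap. The bases that CDK4 shares with TSPAN31 apply to this ratio too. The corresponding shifts were 0.05 and -0.12 for CDK1 over CDK2, and 0.13 and 0.14 for CDK12 over CDK13.

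**Figure D4:**
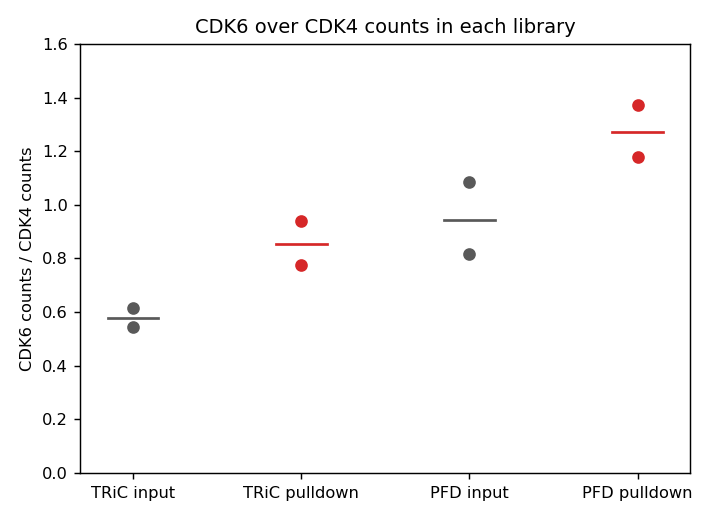
Ratio of CDK6 to CDK4 counts in each library, with geometric means as bars (linear axis from 0). In each line both pulldowns lie above both inputs.

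Coding length moved with the TRiC change. Across 14611 protein-coding genes, which are not independent replicates, Spearman's rho between coding length and TRiC log2 fold change was 0.349, and across 12649 genes it was 0.0747 for PFD. The median TRiC change was 0.22 over 1184 genes of at least 4000 coding bases and -0.17 over 5712 genes of at most 1200. CDK12 and CDK13 have 4470 and 4536 coding bases and CDK8 has 1392, and the other members have 876 to 1116. Of the genes with at most 1200 coding bases, 30.6% had a TRiC value below that of CDK4 and 17.7% one above that of CDK6, positions that were looked up after their values were seen. The part of coding length in the members' values was not tested.

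Lists of pathway genes, 53 genes in all, were read beside the members, by counts alone. In the TRiC pulldown 3 of the 51 tested were called higher and 10 lower, against 8.64% and 10.6% of all genes. In the PFD pulldown 0 of 51 were called by edgeR, with 5 at an unadjusted p under 0.05, against 6.93% of all genes. DESeq2 called 3 lower (CCNC, CCNK and PKMYT1), and over all genes it called 256 higher and 295 lower of 14111. Of the genes called with TRiC, 8 of the 10 lower and 1 of the 3 higher (CDK10, with 1080) have at most 1200 coding bases, against 39.1% of all protein-coding genes tested, and MED13 has 6522. The part of coding length in the calls was not tested.

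Of the cell-cycle cyclins, the activating partners, 3 of 8 were lower with TRiC and 0 higher, with a median of -0.17, where 10.6% of all genes were lower and 8.64% higher. These were CCND3 (log2 fold change -0.37, edgeR adjusted p = 0.033) and CCND1 (-0.31, 0.0061), D-type cyclins that pair with CDK4 and CDK6, and the S-phase cyclin CCNA2 (-0.25, 0.022). All 3 calls were lost with cyclic loess (-0.33, -0.20 and -0.13), with all 8 libraries, with glmTreat and without either TRiC input. CCND3 was also lost with DESeq2, with library totals and without TRiC pulldown replicate 2 (-0.23), and CCNA2 with library totals (-0.20). CCND1 had 264 ± 0.231 CPM in the inputs against 213 ± 7.90 in the pulldowns (SD, n = 2). CCNB1, the partner of CDK1, had -0.15, and CCNE1, a partner of CDK2, -0.13, neither of which passed. CCND2, the other D-type cyclin on the list, had 0.14 (edgeR adjusted p = 0.29) and was the 1 of the 8 above 0.

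Of 9 partners of the transcriptional kinases and CDK5, 1 was higher with TRiC. It was MED13, a Mediator kinase-module subunit, at 134.1 and 142.6 CPM in the inputs against 182.5 and 205.4 in the pulldowns (log2 fold change 0.49, SE 0.08, edgeR adjusted p = 0.00068). The cyclin partners CCNH (0.15), CCNC (0.06), CCNT1 (0.08) and CCNK (-0.23), and the CDK5 activator CDK5R1 (0.31), did not pass. In the PFD pulldown CCNK, the cyclin of CDK12 and CDK13, had 753 and 387 counts in the inputs against 50 and 365 in the pulldowns (-2.05, SE 0.48, edgeR adjusted p = 0.41). CCNC, the cyclin of CDK8, had 1011 and 516 counts against 227 and 360 (-1.47, SE 0.38, edgeR adjusted p = 0.52). CCNK shares 59.5% of its exon bases with genes on the opposite strand, PKMYT1 31.9% and CCNC 13.1%. Of the list genes called with TRiC, CDKN2C shares 20.4%, HEXIM1 14.3%, CCND1 10.4%, CCNA2 9.24%, CDKN1A 4.87% and CCND3 0.417%, and the others none. The part of such reads in the changes was not tested.

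CDK inhibitors had the most calls, with 5 of 7 tested lower with TRiC, 0 higher and a median of -0.42, again against 10.6% and 8.64% of all genes. CDKN1C (p57) fell by 0.63 (edgeR adjusted p = 0.011), CDKN1A (p21) by 0.47 (0.0012) and the P-TEFb inhibitor HEXIM1 by 0.42 (0.0019) on the log2 scale. CDKN1A had 146.6 and 128.9 CPM in the inputs against 101.0 and 97.2 in the pulldowns, and HEXIM1 129.7 and 137.9 against 99.1 and 100.8. CDKN2C (-0.41) and CDKN1B (-0.27) were the other calls. The calls of CDKN1A and HEXIM1 were lost with all 8 libraries and with glmTreat, and that of CDKN1C also without TRiC input replicate 1 (-0.53) and without TRiC pulldown replicate 2 (-0.36). CDKN2A had 0 to 2 counts in every library and was not tested. For HEXIM1 the interaction gave -0.87 (SE 0.17, edgeR adjusted p = 0.14).

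Among 8 genes of CDK phosphorylation and the CKS family, 1 was lower with TRiC: CKS2, a small CDK-binding protein, at 172.8 and 177.0 CPM in the inputs against 127.1 and 122.6 in the pulldowns (log2 fold change -0.49, SE 0.08, edgeR adjusted p = 0.00043). Of 3 kinase chaperones, HSP90AB1 was lower (-0.24, edgeR adjusted p = 0.0077), a call lost with cyclic loess (-0.053), library totals, at least 100 counts per library, all 8 libraries or glmTreat, and without TRiC input replicate 2 (-0.23). None of 5 CDK substrates passed (edgeR; 2 at an unadjusted p under 0.05, POLR2A at -0.20 and RBL1 at 0.24). Of 11 other CDK genes, CDK10 (0.40, edgeR adjusted p = 0.0079) and CDK14 (0.33, 0.034) were higher. The CDK10 call was lost without TRiC input replicate 2 (0.32), and that of CDK14 without TRiC input replicate 1 (0.21) and without TRiC pulldown replicate 2 (0.26). The counts of the near-identical CDK11A and CDK11B are uncertain.

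**Figure D5:**
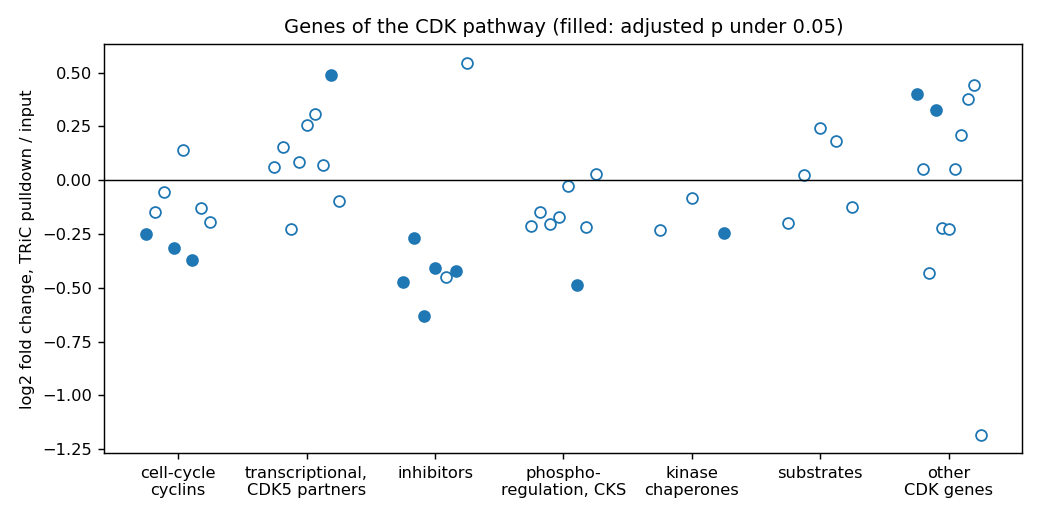
TRiC log2 fold change of each tested gene of the pathway lists, with filled points at an adjusted p under 0.05. The called inhibitors all lie below 0.

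The gene whose profile over the 8 libraries was most like that of each member was found by Pearson's r of log values, over 10963 genes, as a description. It was PREP for CDK1 (0.981), HDDC3 for CDK2 (0.990), DNAAF2 for CDK4 (0.979), RPUSD4 for CDK6 (0.995) and AVEN for CDK7 (0.974). It was RNASEH2B for CDK8 (0.967), PERP for CDK9 (0.968), RAD18 for CDK12 (0.997), ACOT11 for CDK13 (0.984) and FHL3 for CDK5 (0.961). For CDK6 and CDK12, 287 and 316 genes exceeded 0.95, against at most 16 for the other members. The 8 points include the gap between the lines, which these genes share.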

How the data were processed

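Ribosome-protected fragments from 4 groups of 2 libraries were deposited by the authors as raw counts per gene, in 1 table for each line. The authors removed duplicates with UMI-tools, removed non-coding RNA with Bowtie2 2.4.2, aligned uniquely to hg38 with STAR 2.7.10a and took its gene counts; the annotation release and strand setting are not given in the sources used here. Gene names came from GENCODE release 44, which held 60463 of 60664 IDs.

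Each line was fitted alone in edgeR 4.0.16 (R 4.3.3; TMM, filterByExpr, quasi-likelihood F test, Benjamini-Hochberg adjustment over all genes tested, threshold 0.05), and the interaction over all 8 libraries. SE is the log2 fold change over the square root of F. DESeq2 1.42.0, limma 3.58.1 (cyclic loess), library totals, no filter, a minimum of 100 counts per library, glmTreat at 1.5-fold, a replicate block and each library left out were alternatives, and scripts were tested on simulated data. The positional test in the study's methods needs footprint positions and was not run on gene counts. Named genes were all members, the usual partner of each and the gene of nearest profile. Up to 3 called genes with the largest change were also named per list. CCND2, CDKN2C, CDKN1B, CDKN2A, PKMYT1, POLR2A, RBL1, CDK11A and CDK11B were named after their values were seen. The members and lists were chosen with earlier results of these data known. The range over the 4 settings of pulldown against input, and the positions of CDK4 and CDK6 among short genes, were added after seeing the data; the spread between same-numbered pairs remained the planned measure.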

Additional observations from a re-analysis of the deposited data

How the results depend on the processing

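Calls on the members were few and changed with the settings. In the TRiC pulldown 1 member was called in the reported fit and by DESeq2. A minimum of 100 counts per library called 3, cyclic loess 2 and no filter 3. Library totals, all 8 libraries in 1 fit and glmTreat called 0. Leaving out single libraries changed the TRiC count, as it changed the calls over all genes. In the PFD pulldown and in the interaction the reported fit called 0 members. Leaving out single libraries changed this and the calls over all genes, in fits with 1 library in a group. In these fits the PFD change of CDK1 was -0.60 without pulldown replicate 2 and 0.062 without pulldown replicate 1. Same-numbered libraries may be paired. The methods take total RNA from the ribosome pellets that were also used for the pulldown, and the letters in the library names match. The labels do not state a pairing. In the reported fit the replicate numbers were not taken as pairs, since there are only 2 pairs per line. The correlation of same-numbered deviations was 0.097 in TRiC and -0.0047 in PFD. All calls of list genes with TRiC were lost with all 8 libraries and with glmTreat. So were most calls over all genes. All 8 libraries in 1 fit called 16 higher and 15 lower of 18855, and glmTreat 164 and 64 of 17934, against 1550 and 1894 of 17934. With the replicate block 4 TRiC members were called (CDK4, CDK6, CDK7 and CDK9), 6 list genes were higher and 15 lower, and 2 were lower with PFD. Over all genes the replicate block called 2037 higher and 2652 lower of 17934 with TRiC, and 44 and 90 of 14111 with PFD. A minimum of 100 counts per library called 1699 higher and 1414 lower of 11166 with TRiC. Cyclic loess called 1630 and 1433 of 17934, DESeq2 1411 and 1618, and no filter 1525 and 1953 of 35941.

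The TRiC difference of medians, 0.010, was judged against a spread between pairs of 0.00068, so nearly any setting moved it: 0.011 with all 8 libraries, 0.0089 with library totals, 0.0094 with no filter, 0.014 as a mean, 0.088 with cyclic loess, -0.014 with CDK5 among the cell-cycle members and -0.10 without CDK7. Leaving out single libraries gave -0.067 to 0.052, so its sign is not settled. For PFD, leaving out single libraries gave -0.47 to 0.25, against -0.24. The highest over lowest TRiC input level was 21.1 by exon length, against 31.7.

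List genes called higher with TRiC numbered 3, and 6 with at least 100 counts, 5 with cyclic loess and 0 with all 8 libraries or glmTreat. Those called lower numbered 10, and 5 with cyclic loess or library totals and 0 with all 8 libraries or glmTreat. With PFD 3 were lower by DESeq2 and 2 with no filter, where 295 of 14111 and 93 of 24409 of all genes were lower. Leaving out single libraries gave 2 to 6 higher and 4 to 16 lower with TRiC, and 0 to 4 in either direction with PFD.

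Signs turned mostly in PFD. Leaving out single PFD libraries gave ranges of -0.022 to 0.088 for CCNA2, -0.27 to 0.0090 for CCNB1, -0.18 to 0.047 for CCNE1, -0.33 to 0.033 for CCNH, -0.24 to 0.14 for CCNT1, -0.43 to 0.27 for CDK13 and -0.60 to 0.062 for CDK1. The other ranges that crossed 0 were -0.36 to 0.066 for CDK2, -0.52 to 0.52 for CDK5, -0.16 to 0.25 for CDK6, -0.39 to 0.21 for CDK7, -0.36 to 0.44 for CDK8, -0.32 to 1.55 for CDKN1C, -0.035 to 0.013 for HSP90AB1 and -0.47 to 0.11 for MED13. With DESeq2 HSP90AB1 was 0.0085, and with the replicate block it was 1.6e-05. In TRiC, CCNB1 was 0.015 with cyclic loess, and leaving out single libraries gave -0.35 to 0.38 for CCNC and -0.057 to 0.34 for CCNH. The causes were not tested. CDK5 had the fewest counts, 57 to 312 per library, and the widest PFD interval of the members.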
